A study of Homo sapiens with 5 samples.

Results

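Mediator is the large protein complex that carries signals from DNA-bound transcription factors and enhancers to RNA polymerase II at the promoter. Its core is built of a head, a middle and a tail module held together by the scaffold subunit MED14, and a separate kinase module can dock on the core and block its contact with the polymerase. In embryonic stem cells Mediator is known for its role, together with cohesin, at the enhancers that keep pluripotency genes active. The mRNAs of this complex were examined in the human embryonic stem cell line H9 after editing of CFIm25, a subunit of a factor that acts in cleavage and polyadenylation of pre-mRNA. The 33 genes were chosen by name: protein-coding rows whose symbol starts with MED and a digit, and CDK8, CDK19 and CCNC, of the 33857 genes in the deposited table. The group was picked on the basis of known differences between these same samples, among them that of MED14, so those differences are given as a description and do not support the choice of the group. A further 7 rows with a like name, antisense genes and pseudogenes such as MED14OS and MED15P9, were not members. All 33 members passed the filter on low values (10 or more normalized counts in 2 or more of the samples), as did 19232 genes in all.

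Poly(A+) RNA came from 2 mock controls, which were H9 clones that had received the empty CRISPR/Cas9 vector, and from 3 CFIm25-m lines, each a single clone made with its own guide RNA. All 5 lines were selected with puromycin and grown in mTeSR medium. The labels call the groups control KO and CFIm25 KO, while the study describes the edited lines as a knockdown that left some CFIm25 with a shortened N-terminus, so no line is a model of complete loss. Each group is made of separate clones, and p-values measure the spread between clones, not between repeated edits of 1 guide. The edited gene, NUDT21, which encodes CFIm25, had counts normalized to sequencing depth of 6503 and 6398 in mock cells against 4035, 3281 and 3400 in edited clones. All CFIm25-m clones were below both mock controls, in the direction of the labels, with a log2 fold change of -0.86 ± 0.11 (SE; limma-trend, adjusted p = 0.00431), and the adjusted p was 0.0618 without mock control replicate 1 and 0.0557 without mock control replicate 2. Sequencing gave between 18754108 and 23372391 counted reads a sample, and a Mediator gene had between 74 reads (MED31) and 7956 reads (MED14) in a sample. The pluripotency genes POU5F1, SOX2, NANOG, LIN28A, DNMT3B, SALL4, TDGF1 and PODXL were abundant in every sample, with a summed normalized count between 188900 and 218400. Their median log2 fold change was -0.26, with 5 of 8 below 0 and 0 called by limma-trend. For 4 genes every clone was below both mock controls and for 3 every clone was above, against 19.8% and 17.0% of all tested genes. An unadjusted p below 0.05 (limma-trend) was reached by 3, all lower, where 7.15% of all tested genes reached it as lower. LIN28A was at -0.41, SALL4 at -0.35, DNMT3B at -0.33, NANOG at -0.31 and SOX2 at -0.21. POU5F1 at 0.21, TDGF1 at 0.14 and PODXL at 0.07 were above both mock controls in every clone. The 13 markers of differentiated cells summed to between 7221 and 9875, of which the collagen genes COL1A1 (5749 to 8705) and COL1A2 (1107 to 1493) made up most. The other 11 reached at most 29.8 (MIXL1), 20.3 (SOX1), 17.0 (GATA4), 9.003 (PAX6), 8.07 (TBXT) and 7.70 (PECAM1), and SOX17, FOXA2, GATA6, NEUROD1 and PTPRC stayed at or below 4.01.

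Before the values, short motifs in the promoter windows of members are given, none of which is in every window. RefSeq start-site windows on GRCh38.p14, from 250 bases before to 50 bases after a start, were matched by symbol for 25 of the 33 members. Where a member had several, the window with the lowest coordinates was taken, while for the set of all genes the first window listed was taken. CCNC, CDK19, MED15 and MED7 had several, and their windows differed in the motifs they held, so the members' shares depend on this choice. Windows for MED6, MED8, MED13, MED14, MED21, MED22, MED28 and MED30 were not matched. On either strand, GGGCGG (a GC box, bound by SP factors) was in 16 of 25 windows, or 64.0%, against 44.6% of the windows of 27305 genes. Those genes were not limited to the ones that passed the filter on low values. CCGGAA, the core that ETS factors bind, was in 10 windows, or 40.0%, against 17.6% of all. CCAAT was in 32.0% of the members' windows and 35.7% of all, TATAAA in 4.0% and 12.0%, and TGACGTCA, the site of CREB factors, in 4.0% and 2.0%. None of these strings holds another, and a match is a string of letters, not a bound site. The median G and C content was 59.3% in the members' windows and 58.3% in all. Printed here are the windows of MED31, the member with the lowest fold change among those matched, and of MED12, the member with the highest fold change among those above both mock controls in every clone. They lie at chr17:6651556-6651855 on the minus strand and chrX:71118346-71118645 on the plus strand, with GC boxes and ETS cores, on either strand, in capitals. Both windows hold both motifs, while the fold changes of the genes, neither past the threshold, lay on opposite sides of 0.
MED31: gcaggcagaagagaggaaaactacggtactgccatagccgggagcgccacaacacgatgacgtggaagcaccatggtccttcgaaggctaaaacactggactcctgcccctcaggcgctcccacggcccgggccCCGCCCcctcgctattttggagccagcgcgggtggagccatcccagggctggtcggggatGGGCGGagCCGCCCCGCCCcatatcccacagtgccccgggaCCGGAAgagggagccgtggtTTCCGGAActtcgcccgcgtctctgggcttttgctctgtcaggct
MED12: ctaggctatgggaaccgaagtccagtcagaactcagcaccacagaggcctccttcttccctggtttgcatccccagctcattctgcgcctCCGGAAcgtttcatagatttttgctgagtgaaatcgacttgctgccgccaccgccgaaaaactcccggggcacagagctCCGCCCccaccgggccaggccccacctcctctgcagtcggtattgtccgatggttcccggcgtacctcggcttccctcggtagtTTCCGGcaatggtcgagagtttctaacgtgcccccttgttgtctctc

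MED14 was the 1 Mediator gene that passed the threshold, and it was lower in CFIm25-m. MED14 (ENSG00000180182, chrX:40648306-40735858 on the minus strand, GRCh38) encodes the scaffold that bridges the head, middle and tail modules. After normalization its counts were 7952 and 7678 in mock cells against 5702, 4447 and 3884 in edited clones, given here and below in the order of replicates 1, 2 and 3. The clones did not overlap with the mock controls, and they also differed from each other: the log2 difference from the mock mean was -0.455 in replicate 1, -0.813 in replicate 2 and -1.008 in replicate 3. The means were 7815 ± 193.6 (SD, n = 2) and 4678 ± 930.5 (SD, n = 3), so that CFIm25-m kept 59.9% of the mock level. The log2 fold change was -0.76 with a standard error of 0.14 and a 95% interval from -1.08 to -0.44 (limma-trend on log2(normalized count + 1), adjusted p = 0.0309 over all tested genes). With the count-based tests on the recovered reads, the log2 fold change was -0.72 in edgeR (adjusted p = 0.0351) and -0.74 in DESeq2 (adjusted p = 6.2e-05). The call rests on each of 3 libraries: the adjusted p was 0.223 without mock control replicate 1, 0.167 without mock control replicate 2 and 0.106 without CFIm25-m replicate 2, with log2 fold changes of -0.73, -0.78 and -0.73. It held without CFIm25-m replicate 1 (-0.91) and without replicate 3 (-0.63), and it was lost when limma was fitted without the mean-variance trend (adjusted p = 0.201).

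Among all tested genes 0.936% were called lower and 0.941% were called higher, against 1 and 0 of the 33 Mediator genes. The other 32 members therefore did not pass the threshold with limma-trend, and neither did any of them in edgeR or DESeq2. An unadjusted p below 0.05 was reached by 4 members, all lower (MED14, MED15, MED4 and MED13L), where 7.15% of all tested genes reached it as lower and 7.99% as higher. MED14 also had the most reads of the Mediator genes, and its part in the summed normalized count of the 33 genes went from 18.9% and 18.6% in the mock controls to 15.1%, 12.2% and 11.5% in the clones.

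MED14 is overlapped at its 5′ end by MED14OS, an antisense gene on the plus strand (chrX:40735400-40738701), over 459 bases. MED14OS had normalized counts of 104.9 and 122.6 in mock cells against 84.2, 63.9 and 49.1 in edited clones. Its order over the clones was that of MED14, an order also found in several neighbours given below. MED14OS did not overlap between groups, with a log2 fold change of -0.81 ± 0.26 (SE; limma-trend, adjusted p = 0.170), which did not pass the threshold. The strand setting of the counting is not given in the sources used here, so reads of this pair cannot be told apart in the shared bases. The 12 other tested genes that start within 1 Mb of MED14, MED14OS among them, had a median log2 fold change of -0.07. Of these, 8 were below 0, 4 were above 0 and 0 were called by limma-trend. MED14OS and the lincRNA AC092198.1, at 1.84, had an unadjusted p below 0.05 (limma-trend). AC092198.1 had only 4 and 1 reads in mock cells against 14, 8 and 13 in edited clones, and it passed the filter through clones 1 and 3 alone. ATP6AP2, an accessory subunit of the proton pump, lies on one side of MED14 and had 3299 and 3361 against 3641, 3514 and 3410. CXorf38, the closest tested gene beyond the 3′ end, had 778.0 and 791.3 against 539.2, 945.3 and 469.4, so that clone 2 was above the mock controls and clones 1 and 3 were below them. DDX3X, an RNA helicase gene, had 16063 and 16030 against 16753, 15599 and 14405. CASK, a scaffold kinase gene, had 3189 and 3146 against 3040, 2933 and 2823, and the pseudogene GAPDHP1 had 124.5 and 146.7 against 120.3, 114.3 and 78.9, so both were below the mock controls in every clone, with replicate 3 lowest, at -0.11 and -0.39 (limma-trend, adjusted p = 0.576 and 0.448). ATP6AP2 lay above both mock controls in every clone, and the clones of CXorf38 and DDX3X lay on both sides of them. The clone order of MED14 and MED14OS was also that of GAPDHP1, ATP6AP2, USP9X, DDX3X and CASK, but not that of BCOR or CXorf38. MED12, the other Mediator gene on the X chromosome, was higher in every clone, and the median over 702 tested genes of this chromosome was 0.006.

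**Figure D1:**
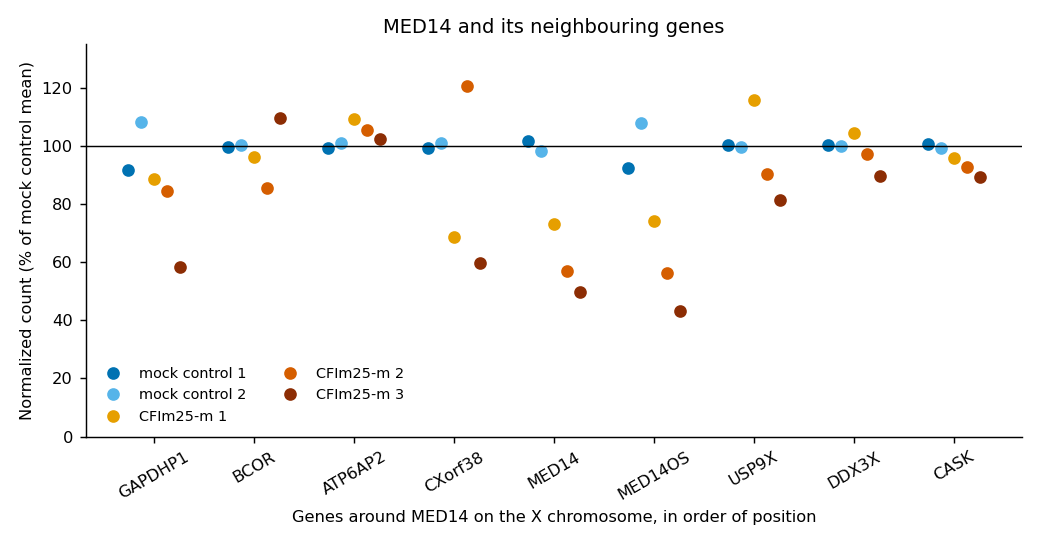
Normalized counts of MED14 and the genes that start within 1 Mb of it on the X chromosome and average at least 50 over all samples, as a percent of the mock control mean (y axis, linear), with 1 point for each sample and genes in order of position (x axis, not to scale). In MED14 and MED14OS all 3 CFIm25-m clones lie below both mock controls, with replicate 3 lowest. The same holds for GAPDHP1 and CASK, whose points lie closer to the mock level. ATP6AP2 lies above both mock controls, and BCOR, CXorf38, USP9X and DDX3X lie on both sides of the mock mean. Replicate 3 is also the lowest clone in ATP6AP2, CXorf38, USP9X and DDX3X.

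The other Mediator genes lay slightly below the mock controls more often than above. The log2 fold change was below 0 for 25 of the 33 members and above 0 for 8. It was below 0 for 51.8% of all tested genes. Among the 12594 tested protein-coding genes with a mean normalized count of at least 50, it was below 0 for 7385. The median over the members was -0.14, or -0.14 without MED14, and it was -0.01 over all tested genes and -0.04 over the 12594 tested protein-coding genes with a mean normalized count of at least 50. Beside it stands the median of -0.26 of the 8 pluripotency genes, of which 5 were below 0 and 3 above 0. Their part in the result was not tested. All 3 clones were below both mock controls for 15 members, where this held for 19.8% of all tested genes. It held for 3123 of the same 12594 protein-coding genes. All 3 were above for 2 members, MED12 and MED26, against 17.0% of all tested genes and 1832 of the 12594 protein-coding genes. Of the 33 members, 26 had an absolute log2 fold change of at most 0.25. The 95% intervals had half-widths between 0.19 (MED22) and 0.48 (MED11), so shifts of the size of the median could not be resolved gene by gene.

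The size of the shift depended on 1 clone. The median log2 difference of the members from the mock mean was -0.06 in CFIm25-m replicate 1, -0.10 in replicate 2 and -0.23 in replicate 3, and 23, 23 and 27 members were below the mock mean. Replicate 3 was the lowest of the clones for 21 members, replicate 1 for 8 and replicate 2 for 4. Without replicate 3 the median of the group was -0.04, with 24 members still below 0. Over the protein-coding genes with a mean of at least 50, the medians of the same clones were -0.02, -0.01 and -0.09, so replicate 3 was also the lowest over these genes. The summed normalized count of the 33 genes was 42155 and 41218 in mock cells against 37818, 36597 and 33723 in edited clones. Leaving out MED14, the sums were 34203 and 33540 against 32116, 32149 and 29839, and every clone remained below both mock controls. The sum over all tested genes was also below both mock controls in every clone, with replicate 3 lowest, at 21584892 and 21650509 against 20757315, 21010150 and 20058576. In bulk RNA, fewer cells of a kind and less mRNA per cell cannot be told apart.

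**Figure D2:**
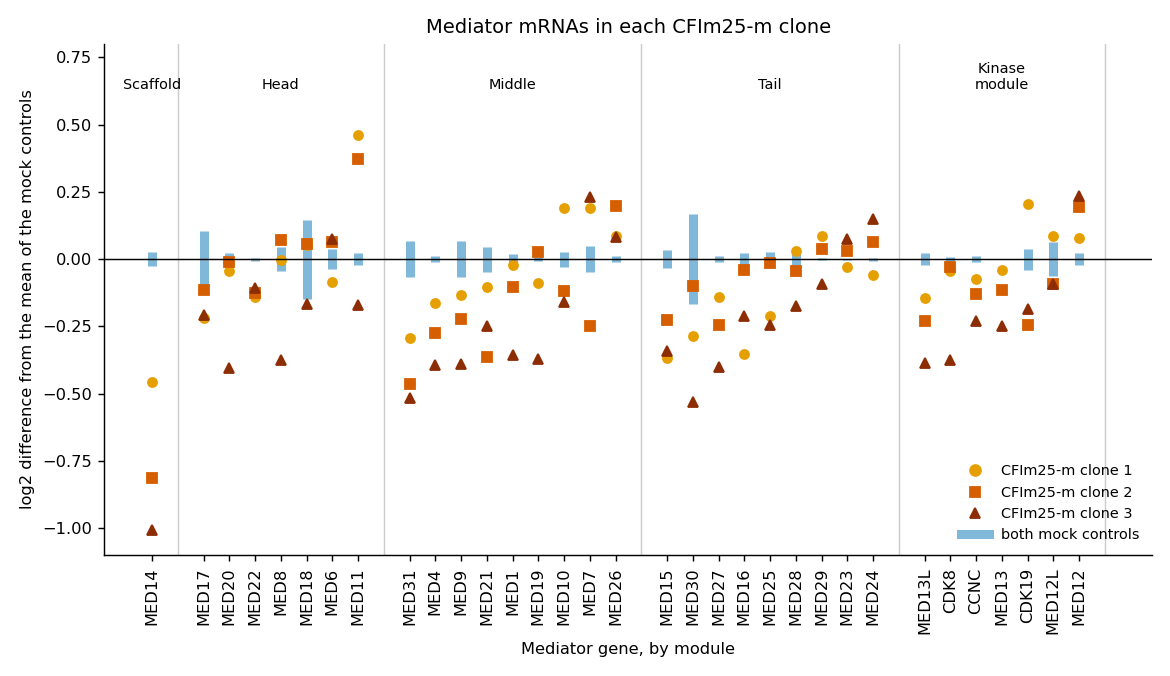
The log2 difference of each Mediator gene from the mean of the mock controls (y axis) in each CFIm25-m clone (points), by module and then by fold change (x axis); blue bars span both mock controls. MED14 lies lowest in every clone, at -0.455, -0.813 and -1.008, and most other genes lie between -0.5 and 0.25.

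In the head module, which contacts the polymerase and its general factors, 5 of 7 genes were below 0 and the median log2 fold change was -0.10. The lowest was MED17 at -0.18, and MED17 and MED22 were below both mock controls in all clones. MED11, a small head subunit, had the highest fold change of all members: its counts were 125.6 and 121.6 in mock cells against 170.4, 160.3 and 109.7 in edited clones. Clones 1 and 2 were above and clone 3 was below both mock controls, so the fold change of 0.22 ± 0.22 (SE; limma-trend, adjusted p = 0.663) was about the size of its error. The 3′ end of MED11 overlaps CXCL16 on the other strand by 85 bases.

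The middle module, which takes part in recruiting the polymerase, had 7 of 9 genes below 0 and a median of -0.16. MED31 (ENSG00000108590, chr17:6643315-6651634 on the minus strand), 1 of the most conserved subunits, had the next lowest fold change after MED14. Its counts were 107.2 and 97.5 in mock cells against 83.2, 73.8 and 71.2 in edited clones, with no overlap between groups. The log2 fold change was -0.42 ± 0.20 (SE; limma-trend, adjusted p = 0.358), and the 95% interval from -0.87 to 0.02 was wide at this depth. MED4 (ENSG00000136146, chr13:48053323-48095131 on the minus strand), a structural subunit of the module, had 866.8 and 854.1 against 767.7, 710.3 and 654.1. It was below both mock controls in all clones, at -0.28 ± 0.11 (SE; limma-trend, adjusted p = 0.259). Its clone order was that of MED14, as was that of MED31, MED9, MED10 and MED1 in this module and of members of other modules. MED1, the subunit that nuclear receptors bind, had 2328 and 2271 against 2265, 2138 and 1795, and its fold change of -0.16 rested mostly on replicate 3. MED7 and MED26 were the members above 0. MED26, which links Mediator to elongation factors, had 124.5 and 126.4 against 133.3, 144.0 and 132.7, a fold change of 0.12 with a standard error of 0.17. MED7, a hinge subunit, had 290.5 and 271.2 against 320.7, 235.9 and 329.9, with clone 2 below and the other clones above the mock controls. Its fold change of 0.06 changed sign when replicate 1 or replicate 3 was left out. MED26 overlaps the lincRNA AC008764.2 on the other strand over 18652 bases, and MED31 overlaps TXNDC17 over 1227 bases, and reads of these pairs cannot be told apart there either.

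The tail module receives contacts from activators. Here 6 of 9 genes were below 0, with a median of -0.16. MED15 (ENSG00000099917, chr22:20495913-20587632 on the plus strand), a target of SMAD and SREBP factors, had 1637 and 1563 in mock cells against 1239, 1368 and 1262 in edited clones. All clones were below the mock controls by more than the mock controls differed, and the clones were close together, at 1289 ± 68.6 (SD, n = 3) against 1600 ± 51.8 (SD, n = 2). The log2 fold change of -0.31 ± 0.09 (SE; limma-trend, adjusted p = 0.152) did not pass the threshold over all genes. MED15 has near copies, and the transcribed pseudogene MED15P9 had 199.4 and 197.8 against 189.4, 148.5 and 324.2, so counts that could be split between copies are uncertain. MED30 had 285.8 and 226.8 against 208.5, 237.7 and 176.0, and its fold change of -0.31 lay beside the largest difference between the mock controls of any member, 0.33 on the log2 scale, and was -0.14 without mock control replicate 1 and -0.47 without mock control replicate 2. At the other end, MED24, a subunit that supports nuclear receptor signalling, had 2463 and 2446 against 2356, 2562 and 2726. Clone 1 was below and clones 2 and 3 were above the mock controls, at 0.05 ± 0.09 (SE). MED23, a docking subunit for ELK1 and E1A, differed by 0.03, with a 95% interval from -0.19 to 0.24. MED27 and MED16 were below both mock controls in all clones, at -0.26 and -0.20.

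In the kinase module, in which CDK8 or CDK19 pairs with cyclin C and is activated by MED12 while MED13 tethers the module to the core, 6 of 7 genes were below 0 and none passed the threshold. CDK8, the kinase, had 826.4 and 818.4 in mock cells against 797.8, 805.8 and 633.9 in edited clones, so replicates 1 and 2 were close to the mock controls and replicate 3 was lower. Its log2 fold change was -0.15 ± 0.13 (SE). CDK19, the paralogous kinase, had 485.2 and 459.4 against 544.2, 398.8 and 414.6, with clone 1 above and clones 2 and 3 below. The groups overlapped, and the fold change of -0.08 ± 0.15 (SE) became 0.01 without replicate 2. CCNC, which encodes cyclin C, had 2402 and 2369 against 2270, 2180 and 2034, a fold change of -0.14 ± 0.09 (SE) with all clones below the mock controls.

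MED12, the activator of the kinase, was the member of this module with a fold change above 0. Its counts were 1171 and 1208 in mock cells against 1256, 1360 and 1401 in edited clones, or 1190 ± 26.3 (SD, n = 2) against 1339 ± 75.1 (SD, n = 3). All clones were above both mock controls and the 95% interval was from -0.04 to 0.38, so the fold change of 0.17 ± 0.10 (SE; limma-trend, adjusted p = 0.438) was not resolved from 0. MED12L, its paralogue, had 405.7 and 371.5 against 411.9, 363.7 and 364.5, a fold change of -0.03 ± 0.12 (SE), and its sign turned to 0.03 without mock control replicate 1. MED13 had 1803 and 1801 against 1751, 1666 and 1516, and MED13L had 2055 and 1992 against 1828, 1723 and 1549. Both were at lower counts in every clone than in either mock control, at -0.13 ± 0.10 (SE) and -0.25 ± 0.10 (SE; limma-trend, adjusted p = 0.544 and 0.268).

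The paralogues were also set against each other within each sample, since a module holds either of each pair. Dividing reads by the gene length of the table, MED12L made up 16.9% and 15.3% of MED12 and MED12L in mock cells against 16.2%, 13.6% and 13.3% in edited clones. The 95% Wilson half-width was at most 1.70 percentage points, which covers counting error only, and clone 1 lay between the mock controls, so the groups overlapped. MED13L made up 27.9% and 27.3% of its pair in mock cells against 26.2%, 26.0% and 25.7% in edited clones. These point values did not overlap between groups, and the counting half-width of a single sample was at most 1.37 points. The 95% Wilson intervals did overlap: they began at 26.55% and 26.06% in the mock controls and ended at 27.44%, 27.22% and 27.09% in the clones. The shares were thus not separated beyond counting error sample by sample. CDK19 made up 21.7% and 21.0% against 24.4%, 19.0% and 23.6%, on both sides of the mock controls. With 2 samples against 3, the 10 arrangements of the samples allow no one-sided exact permutation p below 0.1, and the shares are given as a description. The absolute shares depend on the length used: with the canonical transcript, MED13L made up 54.7% and 53.9% against 52.5%, 52.3% and 52.0%.

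**Figure D3:**
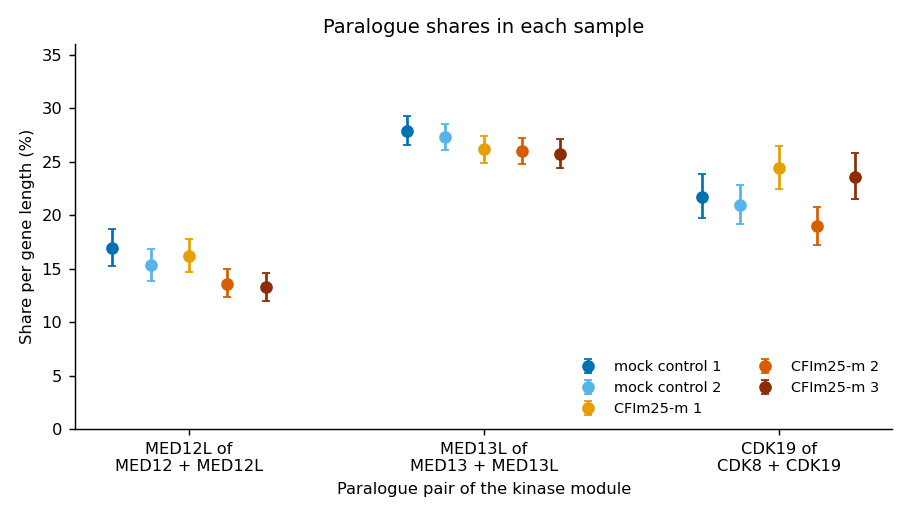
Share of 1 paralogue in its kinase module pair, in percent of reads per gene length (y axis), for each sample (points); bars are 95% Wilson intervals of the counts. The MED13L points of the clones lie at 26.2%, 26.0% and 25.7%, below 27.9% and 27.3% in the mock controls, though their bars overlap. The MED12L and CDK19 points of the groups overlap.

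Compared per length, the members covered a wide range of levels. In mock controls MED14 was highest at 809.3 normalized counts per kb of the gene length in the table, followed by the tail subunit MED16 at 513.8 and CCNC at 413.8. The lowest were MED12L at 30.8, MED26 at 23.5 and MED17 at 12.4. MED14 was still the highest on average in CFIm25-m, at 484.4, but its clones, at 590.5, 460.6 and 402.2, then overlapped with those of MED16, at 402.8, 499.0 and 443.8. The other ranks shifted little, with MED4 moving from rank 4 to rank 7 as the largest change. Per kb of the canonical transcript, CCNC was highest in the mock controls at 1108, and MED14 was next at 977.3, so the place of MED14 at the top depends on the length used.

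**Figure D4:**
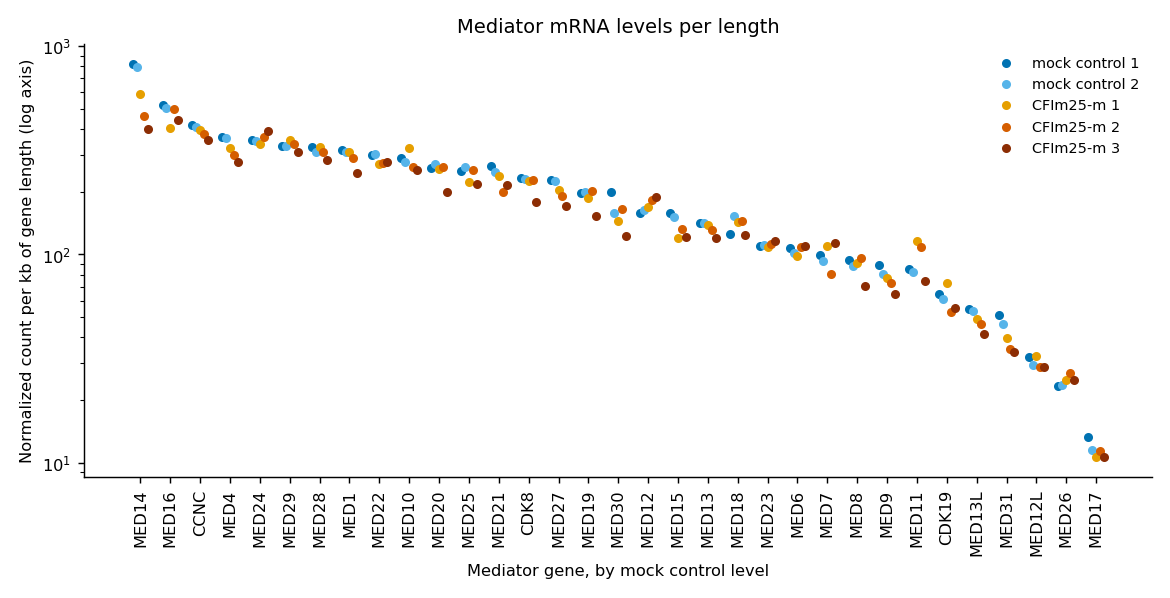
Normalized count per kb of the gene length given in the table (log y axis) of the 33 Mediator genes in each sample (points), ordered by the mock control mean (x axis). The mock control means run from 809.3 for MED14 to 12.4 for MED17, and MED14 is the gene whose samples spread most between the groups.

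Lists of genes that work beside Mediator were read in the same fit. Of 12 RNA polymerase II subunit genes, 0 were called in limma-trend and 0 had an unadjusted p below 0.05, with 6 below 0 and a median log2 fold change of -0.01. Of 31 general initiation factor genes, 0 were called, 2 had an unadjusted p below 0.05 in each direction, 22 were below 0 and the median was -0.09. Of 20 genes for pause release and looping partners, such as those of P-TEFb, the super elongation complex and cohesin, 0 were called, 2 had an unadjusted p below 0.05, both lower, 18 were below 0 and the median was -0.14. The Mediator median of -0.14 was thus close to that of the looping and pause release partners, and no list was tested against another. By clone, the partners' medians were -0.07, -0.17 and -0.14, so in that list replicate 3 was not the lowest. All 3 clones were below both mock controls for 12 of the 20 partners and above for 1. These counts were 11 and 3 of the 31 initiation factor genes, and 2 and 2 of the 12 polymerase genes. They were 15 and 2 of the 33 Mediator genes, against 19.8% and 17.0% of all tested genes.

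**Figure D5:**
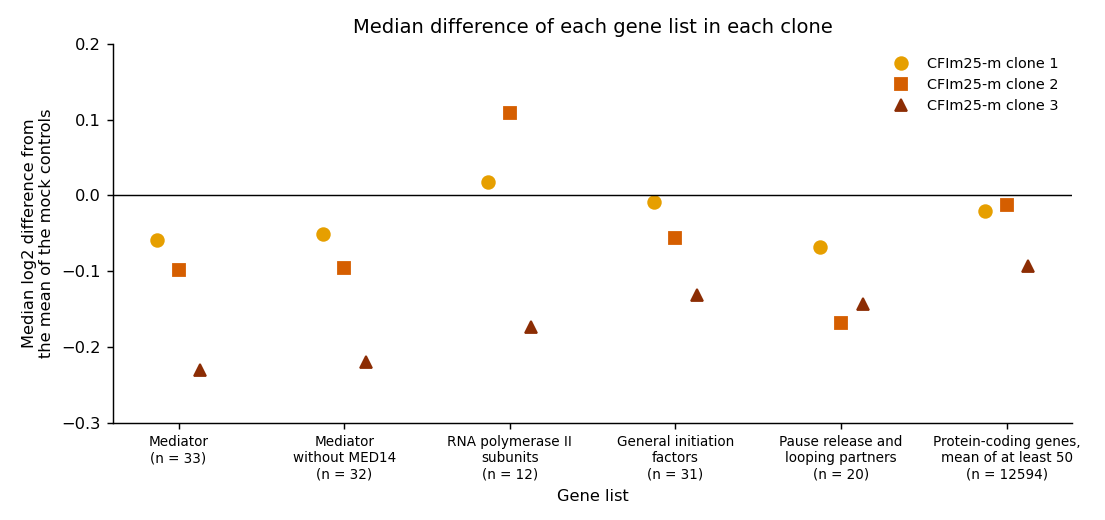
Median log2 difference from the mean of the mock controls (y axis) in each CFIm25-m clone (points) for the Mediator genes, 3 lists of transcription genes and the protein-coding genes with a mean of at least 50 (x axis). The Mediator medians of -0.06, -0.10 and -0.23 change little without MED14, while the RNA polymerase II list is above 0 in clones 1 and 2 and below 0 in clone 3.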

How the data were processed

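Poly(A+) RNA-seq of 2 mock control and 3 CFIm25-m H9 samples was analysed, grouped by the labels. The authors deposited 1 table of normalized counts per gene, a signal made from read counts and 1 size factor per sample. Submitters' processing notes name HISAT2, featureCounts, Subread, DESeq2 and hg38. Versions, annotation and strand setting are not given in the sources used here. The table also holds group means, a log2 fold change and p-values of the authors' own comparison, which were not used, and a gene length. All 33 members overlapped their RefSeq position on GRCh38.p14.

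Divided by the smallest step of its sample, 100.0% of values came out as whole reads (tolerance 0.01), 18754108 to 23372391 a sample. Canonical transcript lengths came from the GENCODE annotation. Intervals of shares cover counting error only.

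The main test was limma 3.58.1 (eBayes with trend, R 4.3.3) on log2(value + 1), which understates changes of low genes, for 19232 genes with at least 10 in at least 2 samples. P-values were adjusted by Benjamini-Hochberg over all of them (threshold 0.05). edgeR 4.0.16 and DESeq2 1.42.0 on recovered reads, another pseudocount, other filters, TMM scaling, no trend, the replicate number as a block and leaving out single samples were alternatives. Scripts were tested on simulated data. The members and lists were chosen with earlier results of these data known. Genes named with values are called members, the 5 lowest and the 5 highest fold changes, the kinase module and NUDT21; any others, MED14OS and other neighbours among them, were chosen after their values were seen. Module placement of MED19 and MED26 to MED30 differs between authors.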

Additional observations from a re-analysis of the deposited data

How the results depend on the processing

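The count of Mediator genes called higher was 0 under every alternative run. The count called lower, 1 in the report, was between 0 and 1 when samples were left out one at a time, 0 without the mean-variance trend (0 members, since MED14 then had an adjusted p of 0.201) and 2 with the replicate block, where MED15 joined MED14 at -0.30 (adjusted p = 0.0099, limma). With a pseudocount of 5, no filter, a filter of 50, TMM scaling, edgeR and DESeq2 the count was 1. The median log2 fold change of the members was -0.037 with the replicate block and lay between -0.176 and -0.037 when samples were left out, the latter without CFIm25-m replicate 3. The block uses only replicates 1 and 2. The replicate differences of both groups were close to uncorrelated (Pearson's r = 0.016 across 19232 genes, which are not independent replicates). With a single difference between separate clones in each group, this cannot show whether the replicate numbers pair the samples. All genes called lower and higher numbered 1049 and 973 with the block, against 180 and 181 in the report, 25 and 21 without the trend, 35 and 31 without mock control replicate 1, 33 and 38 without mock control replicate 2, 90 and 53 without CFIm25-m replicate 1, 117 and 84 without replicate 2, 524 and 520 without replicate 3, and 268 and 309 in DESeq2. The cause was not tested. Of the named genes, NUDT21 kept its direction but lost the call without the trend (adjusted p = 0.106) and without mock control replicate 1 or 2 (0.0618 and 0.0557). Signs reversed for MED7 (-0.029 with the block, -0.009 without CFIm25-m replicate 1, -0.029 without replicate 3), MED12L (0.030 without mock control replicate 1) and CDK19 (0.009 without CFIm25-m replicate 2), none of which had passed the threshold. Over the single samples left out, these genes ranged from -0.029 to 0.212, from -0.096 to 0.030 and from -0.215 to 0.009. The median without MED14 (-0.139) and lengths of the canonical transcripts were alternatives chosen after seeing the data. With 2 mock controls the spread of that group is known poorly, and leaving out a mock control leaves 1, which is assumed to vary like the clones.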

Other observations

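Among the rows with a like name, MED15P8, an unprocessed pseudogene on chromosome 2, had 9 and 8 reads in mock cells against 1, 1 and 0 in edited clones, below the filter, so it was not tested. MED13 shares its strand with a short unclassified gene, AC018628.1, that lies inside it. AC018628.1 had 23.1 and 18.3 normalized counts in mock cells against 51.1, 38.7 and 43.3 in edited clones, a log2 fold change of 1.06 (limma-trend, adjusted p = 0.117), while MED13 itself was lower in every clone. IGSF10, which overlaps MED12L by 11689 bases on the other strand, had 39.2 and 25.1 against 61.1, 62.1 and 56.8. In all, 23 members overlap another listed gene, 22 of them on the other strand.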
